A study of Homo sapiens with 4 samples.

Results

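The region examined was a stretch of 3 Mb on the long arm of human chromosome 8, band 8q24, which holds the MYC oncogene and the genes on either side of it (hg19, chr8:127000000-130000000). Every peak that overlapped this window in any of 3 deposited ChIP-seq peak lists was taken. The lists had 286 such peaks among 139330 in all: 99 of 60752 peaks of H3K27Ac after DHT, 98 of 57623 peaks of H3K27Ac after vehicle, and 89 of 20955 peaks of TCF7L2.

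All libraries came from LNCaP, a human prostate cancer line whose growth responds to androgens through its androgen receptor, and the labels name no genetic change made for the study. For H3K27Ac, LNCaP cells at passage 20 were kept in charcoal-stripped serum, which is depleted of androgens, and received 10 nM DHT (dihydrotestosterone, the most potent natural androgen) for 4 h or the ethanol vehicle. For TCF7L2, cells at passage 15 were kept in serum that had not been stripped. Each condition was 1 library, which leaves the variation from culture to culture unknown and allows no test between conditions. Values are given side by side. The 95% intervals of ratios cover the counting of tags only, and those of shares cover the number of peaks only, taking peaks as independent.

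H3K27Ac is an acetyl mark that histone acetyltransferases place on nucleosomes at active promoters and enhancers. TCF7L2 is a DNA-binding factor of the HMG-box family that brings beta-catenin to Wnt target genes, and MYC is one of the best known of those targets. MYC itself is a transcription factor that drives growth and division in many cancers. The DNA around it is poor in protein-coding genes and rich in long noncoding RNAs, among them PVT1 to its right and PCAT1, a transcript found in prostate cancer, to its left. Enhancers spread over long distances of this DNA are known to contact the MYC promoter in several cancer types, and inherited risk of prostate cancer maps to several places between the genes.

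As a check on the labels, the promoter of KLK3, which encodes prostate-specific antigen and is the standard androgen-induced gene of this cell line, had a height of 148 tags with DHT, against 10 tags with vehicle. Promoters of all 10 luminal prostate markers had H3K27Ac in both lists. None of 3 basal markers and none of 3 leukocyte markers did, while COL1A1 (37 tags with DHT, 34 with vehicle) and ACTA2 (22 and 24 tags) of 4 stromal markers, CDH5 of endothelium (47 tags in both) and SYP of neuroendocrine cells (13 tags in both) did. Their part in the results was not tested.

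The window was divided into 6 segments by the middle between neighbouring gene bodies, and each peak was assigned by its centre. From left to right these were FAM84B (named LRATD2 in current annotation), PCAT1, POU5F1B, MYC, PVT1 up to the annotated end of that gene, and the DNA beyond PVT1. The height of a peak is the number of tags piled up at it.

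Both marks were dense in the window. H3K27Ac had 33.0 peaks per Mb with DHT and 32.7 with vehicle in the window, against 19.6 and 18.6 over the genome. TCF7L2 had 29.7 peaks per Mb, against 6.77 over the genome and 8.04 over the rest of chromosome 8. The window therefore stood further above the genome for TCF7L2 than for acetylation. Of 1006 windows of 3 Mb laid end to end over the genome without chromosome Y, 3 held at least as many TCF7L2 peaks, with a median of 17 peaks and a highest count of 172. For H3K27Ac, 126 windows held as many DHT peaks and 107 held as many vehicle peaks. The windows were laid from the start of each chromosome, so those over 8q24 share peaks with the examined stretch and may be among these counts.

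**Figure D1:**
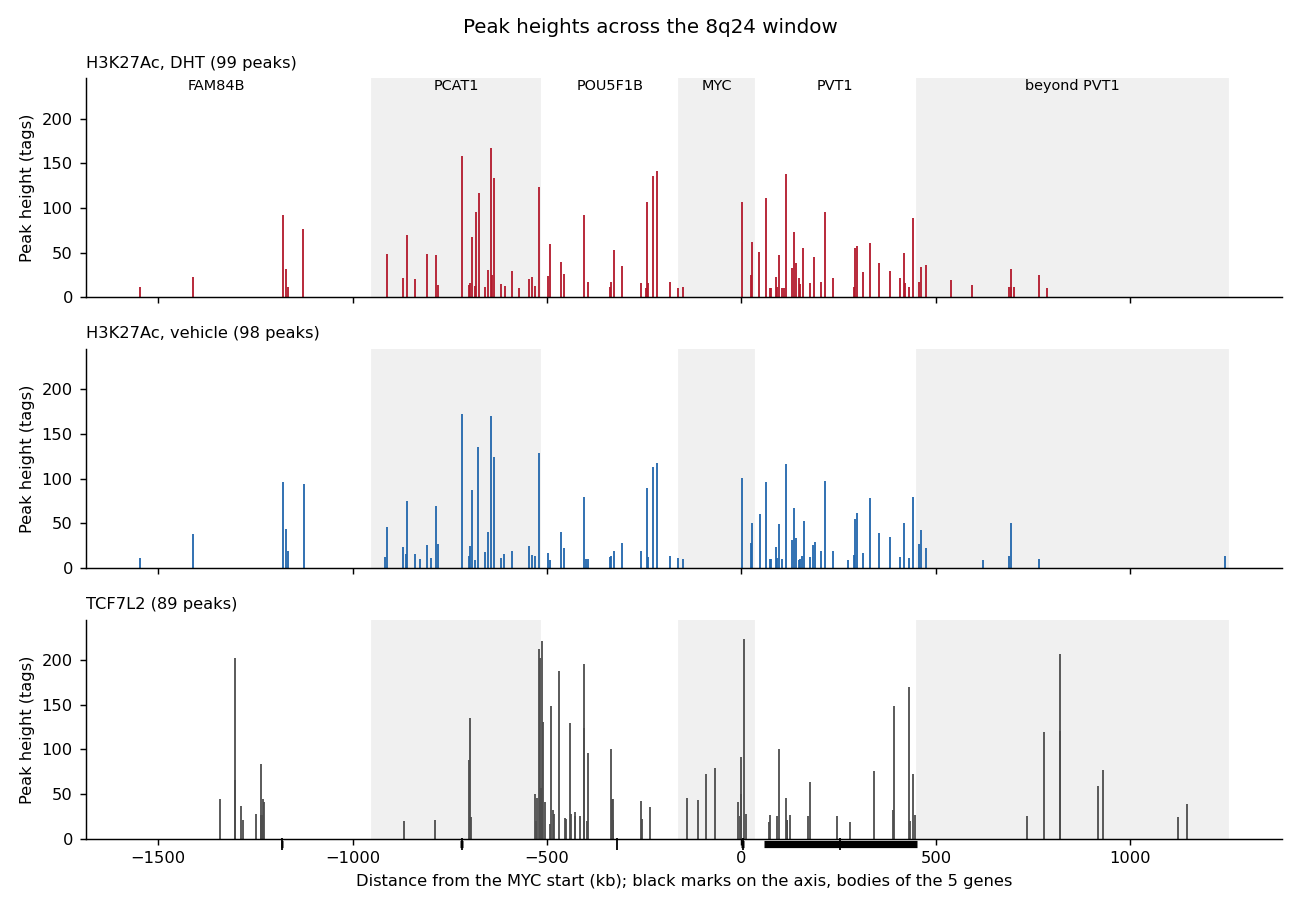
Heights in tags (y axis) of every peak of the window against distance from the MYC start in kb (x axis), for H3K27Ac with DHT, H3K27Ac with vehicle and TCF7L2; shading marks the segments. Both acetylation panels have their tallest peaks in the PCAT1 segment, up to 167 tags with DHT and 172 with vehicle, while the tallest TCF7L2 peak, of 224 tags, lies at MYC.

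The TCF7L2 peaks of the window were also taller than those elsewhere. Their median height was 41 tags, against 31 tags over the genome and 30 over the rest of chromosome 8, and 19 of 89 reached 100 tags, where 9.78% of all TCF7L2 peaks did. Acetylated peaks were close to the genome in height, with medians of 25 tags with DHT and 24 with vehicle in the window, against 23 and 22 tags over the genome. They covered a larger share of the DNA, at 9.68% with DHT and 9.45% with vehicle, against 4.45% and 4.16% of the genome.

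The segments differed in which mark filled them. H3K27Ac peaks were densest in PVT1, with 78.9 peaks per Mb with DHT and 81.3 with vehicle, followed by PCAT1 with 62.4 and 64.7. TCF7L2 was densest in POU5F1B, with 81.0 peaks per Mb, and in MYC, with 62.4. PVT1 had 47.8 TCF7L2 peaks per Mb and PCAT1 20.8, and POU5F1B had 50.3 H3K27Ac peaks per Mb in each condition, so all 3 were above the genome in both marks. MYC was too, but its 20.8 H3K27Ac peaks per Mb in each condition, from 4 peaks, were little above the genome's 19.6 and 18.6. FAM84B and the DNA beyond PVT1 were sparse in acetylation, at 7.52 and 13.7 peaks per Mb with DHT and 7.52 and 9.99 with vehicle.

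**Figure D2:**
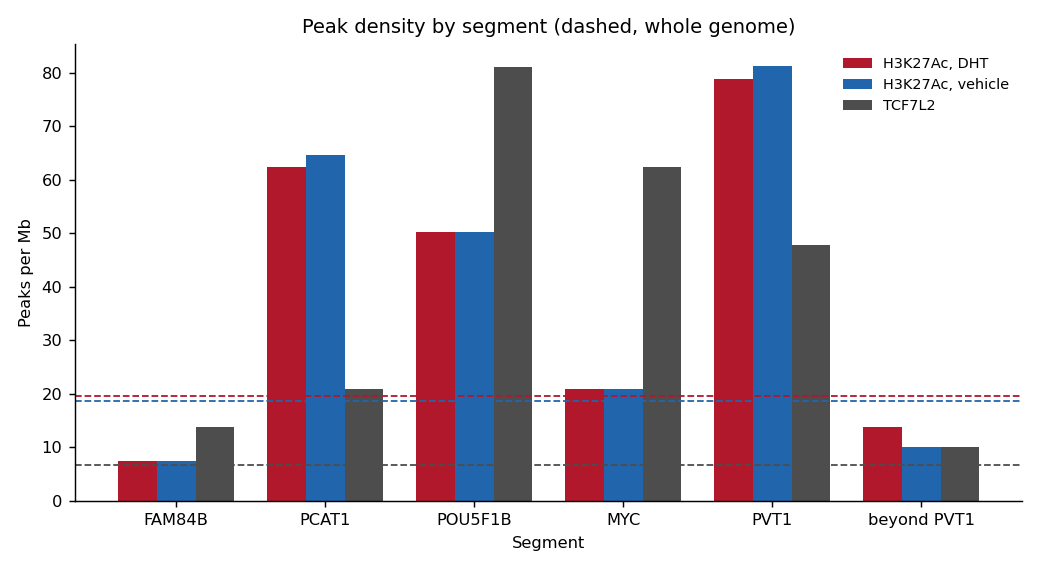
Peaks per Mb (y axis) in the 6 segments (x axis) for H3K27Ac with DHT, H3K27Ac with vehicle and TCF7L2, with dashed lines at the genome's 19.6, 18.6 and 6.77 peaks per Mb. TCF7L2 is above its genome line in all 6 segments, and acetylation is below its lines in FAM84B and beyond PVT1.

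To set both conditions beside each other, DHT and vehicle peaks that shared at least 1 bp were merged into acetylated domains, each with the tallest peak of each list as its height. The window held 104 domains. Of these, 88 were found in both conditions, 9 with DHT only and 7 with vehicle only. That is 8.65% with DHT only, where 15.6% of all domains of the genome were, and 6.73% with vehicle only, against 10.2%. Domains of 1 condition were low: the 9 had a median of 12 tags and the 7 a median of 10 tags, close to the lowest heights listed, 10 tags with DHT and 9 with vehicle.

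Over the 88 shared domains of the window, DHT and vehicle heights were nearly the same. The median height was 29 tags with DHT and 26.5 with vehicle, and the median ratio of DHT over vehicle was 1.05 (log2 0.07), against 1.07 (log2 0.10) over the genome. Because heights are not stated to be scaled to the number of reads, the genome's median is the level against which a ratio has to be read. The DHT height was at least 1.5 times the vehicle height in 13 domains (14.8%), where 14.6% of all shared domains were, and at most 1/1.5 of it in 7 (7.95%), where 6.70% were. Both shares were near the background. The interval of the ratio lay wholly above the genome's median in 5 domains, where 7.63% of all shared domains did, wholly below it in 4, where 4.47% did, and held it in the other 79. When both heights had to reach 20 tags, 3 domains were at least 1.5 times higher and 2 at most 1/1.5. The genome's shares under this filter were not counted, so the drop is not a finding about this window.

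**Figure D3:**
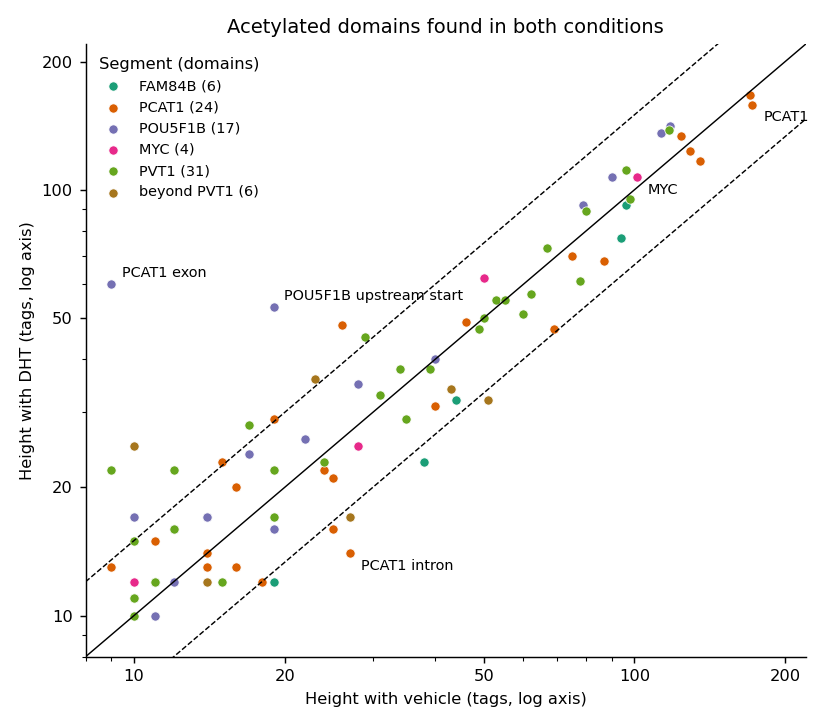
Height with DHT (y axis, tags, log scale) against height with vehicle (x axis, tags, log scale) of the 88 shared domains, coloured by segment, with a solid line at equal heights and dashed lines at ratios of 1.5 and 1/1.5; some points coincide. Most points lie between the dashed lines, and the exon of PCAT1 with 60 tags with DHT and 9 with vehicle is farthest above them.

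The medians of the segments lay on both sides of 1. In POU5F1B the DHT height was the higher one in 13 of 17 shared domains and the lower one in 2, where 57.1% of all shared domains of the genome were higher and 37.3% lower. In PCAT1 it was higher in 8 of 24 and lower in 15, and in FAM84B higher in 1 of 6 and lower in 5. The median ratios were 1.2 in POU5F1B (log2 0.27), 0.931 in PCAT1 (log2 -0.10) and 0.773 in FAM84B (log2 -0.37). PVT1 (31 domains, 1.09) and MYC (4 domains, 1.13) lay close to the genome, and the 6 domains beyond PVT1 had a median of 0.824. The difference between segments was not tested, since neighbouring domains of 1 library are not replicates.

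Relative to the genome's median ratio, 13 of 17 domains of POU5F1B were above it, against 7 of 24 in PCAT1 and 1 of 6 in FAM84B. When each height was turned into its percentile in its own list, the DHT percentile was the higher one in the same numbers of domains for POU5F1B and PCAT1 (13 and 7) and in none of the 6 of FAM84B. In PVT1, 18 of 31 domains had the higher height with DHT but 12 had the higher percentile, so its direction depended on the scaling. This was not particular to PVT1. Over the genome 57.1% of shared domains had the higher height with DHT and 48.0% the higher percentile. The DHT peaks were wider in 13 of 17 domains of POU5F1B, 8 of 24 of PCAT1 and 1 of 6 of FAM84B, where 50.2% were wider over the genome. In PVT1 they were wider in 10 of 31 and narrower in 20, against its heights.

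**Figure D4:**
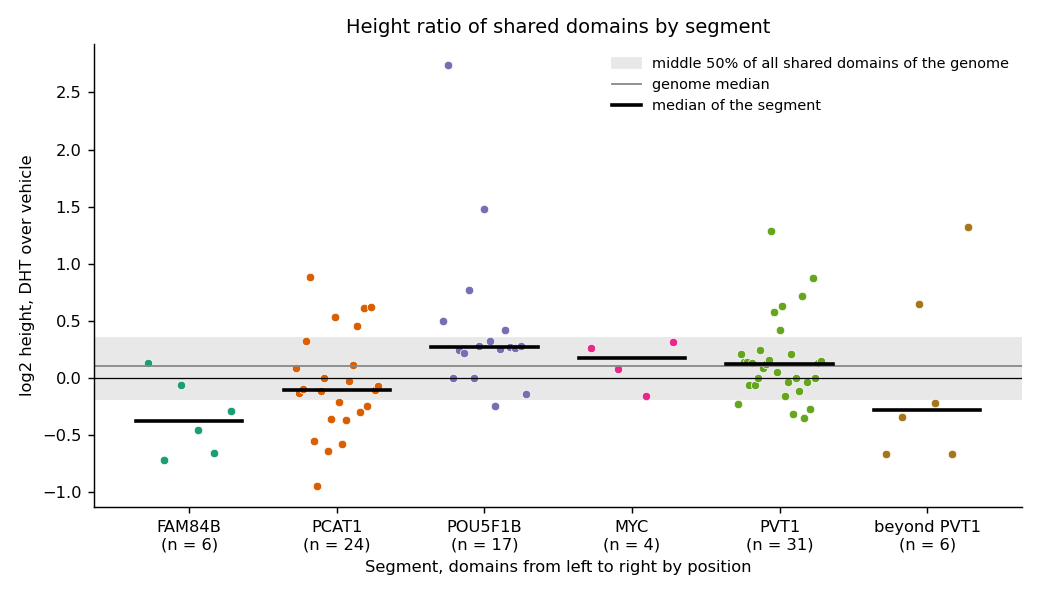
Log2 height ratio of DHT over vehicle (y axis) of each shared domain, by segment (x axis, domains ordered by position), with black bars at segment medians and a grey band for the middle 50% of all shared domains of the genome, from -0.19 to 0.35. The POU5F1B bar is at 0.27, those of FAM84B and PCAT1 are below 0, and the highest point, at 2.74, is in POU5F1B.

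The border between PCAT1 and POU5F1B matters for this contrast. GENCODE lists 34 transcripts of PCAT1, whose joint extent, chr8:127568568-128431295, runs over its neighbours on both sides, so 1 transcript of 7.86 kb was taken as its body. With the whole extents of all transcripts, the POU5F1B segment took over the dense acetylation left of the border and its median log2 ratio fell to 0.06, against 0.27. PCAT1 then kept a median of -0.10.

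Within PCAT1, the body of the gene lay under the widest acetylated domain of the window. This domain of 16.5 kb (chr8:128021550-128038049) covered the start and the exons of the transcript used here and had heights of 158 tags with DHT and 172 with vehicle (ratio 0.919, 0.735 to 1.15). A domain of 8.19 kb over an exon of PRNCR1, a noncoding RNA first described in prostate cancer, was as tall, at 167 tags with DHT and 170 with vehicle. Neither height differed beyond counting error. Further domains nearby, the first at a PCAT1 exon and the others in introns of both PCAT1 and CASC19, a noncoding RNA on the opposite strand, had 117 and 135 tags (14.8 kb wide), 134 and 124 tags, and 123 and 129 tags with DHT and vehicle in that order. These 5 domains were all above the 97th percentile of height in both lists. The lowest ratio of the whole window also lay here, in a PCAT1 intron (chr8:127968270-127970159), with 14 tags with DHT and 27 with vehicle (0.519, 0.251 to 1.02). Its interval held 1 but lay below the genome's median ratio of 1.07. The highest ratio of the segment was at an exon and a promoter of PCAT1 (chr8:127938210-127940669), with 48 tags with DHT and 26 with vehicle (1.85, 1.12 to 3.10). Neighbouring domains of the same gene thus had values on either side of 1.

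The tallest domain found in 1 condition only was also in PCAT1. It had 25 tags with DHT, was 419 bp wide and began 1 bp after the end of the PRNCR1 domain, which is acetylated in both conditions. The tallest domain with vehicle only in this segment had 12 tags. No other domain found with DHT only reached 20 tags, and none found with vehicle only did.

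POU5F1B is a retrotransposed copy of POU5F1, the gene of the pluripotency factor OCT4, and its segment had the largest ratios of the window. The first was at an exon and a promoter of PCAT1, 492 kb before the MYC start (chr8:128254920-128257319). It had 60 tags with DHT and 9 with vehicle (6.67, 3.29 to 15.3). The DHT peak was 2399 bp wide and the vehicle peak 449 bp, and 9 tags is the lowest height in the vehicle list. The second was at an annotated upstream start of POU5F1B itself (chr8:128419500-128423219), with 53 tags with DHT and 19 with vehicle (2.79, 1.62 to 4.99), and widths of 3719 and 1349 bp. Both intervals lay above the genome's median ratio of 1.07. POU5F1B has 3 annotated transcripts. The start at 128421271 lay under this domain, the start at 128428112, which belongs to the canonical transcript, had no peak of any list, and the start at 128334428 had a TCF7L2 peak of 26 tags and no H3K27Ac.

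The tallest acetylation of the POU5F1B segment lay in the intergenic DNA between CASC8, a noncoding RNA on the minus strand, and MYC. These 3 domains, 242, 227 and 218 kb before the MYC start, had 107, 136 and 141 tags with DHT and 90, 113 and 118 tags with vehicle. Their ratios were 1.19, 1.2 and 1.19, and each interval held 1. They held no TCF7L2 peak. The lowest ratio of the segment was at a CASC8 exon, with 16 tags with DHT and 19 with vehicle (0.842, 0.405 to 1.73). Domains of 1 condition in this segment reached 11 tags with DHT and 10 with vehicle.

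MYC itself was acetylated alike in both conditions. Its domain of 12.1 kb (chr8:128744400-128756549) covered the whole gene and the start of CASC11, a noncoding RNA on the opposite strand, and had 107 tags with DHT and 101 with vehicle (1.06, 0.800 to 1.40), at percentile 96.8 in both lists. The segment had 3 other domains, of 62 and 50 tags, 25 and 28 tags, and 12 and 10 tags with DHT and vehicle in that order. All 4 intervals held 1. Acetylation to the left of MYC was sparse, and the nearest domain to the left of the gene was 150 kb before its start.

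The MYC domain held more TCF7L2 peaks than any other domain of the window. From left to right these 6 peaks had 26, 50, 91, 24, 19 and 224 tags. The first 5 lay between 3.24 kb before the start and the start, within CASC11 or over a first exon of MYC. The sixth (chr8:128754060-128755829) lay over the last exon and the 3′ end of MYC, 6.47 kb after its start, and at 224 tags it was the tallest TCF7L2 peak of the window and ranked 19 of 20955 in the genome. Of these, the peak of 91 tags lay at the promoter of an upstream annotated start of MYC, and the peak over the canonical start had 19 tags, the lowest of the 6. Further TCF7L2 peaks at 140, 111, 89.9 and 67.4 kb before the start had 46, 43, 73 and 79 tags in DNA without acetylation.

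PVT1 is a long noncoding RNA gene of 393 kb that is often gained together with MYC in cancer. Its main start lay under a domain of 9.78 kb with 111 tags with DHT and 96 with vehicle (1.16, 0.872 to 1.54). The tallest and widest domain of the segment was inside the gene (chr8:128857530-128869859, 12.3 kb), with 138 tags with DHT and 117 with vehicle (1.18, 0.915 to 1.52), and held 4 TCF7L2 peaks of 19 to 46 tags. A domain at an exon of LINC02912, a noncoding RNA within PVT1 on the other strand, had 95 and 98 tags. DHT peaks covered 27% of the segment and vehicle peaks 25.5%, but not evenly along the gene. Between chr8:128984159 and chr8:129037050 the only H3K27Ac peak was 1 with vehicle, of 449 bp and 9 tags.

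The largest ratio in PVT1 was in an intron (chr8:128896230-128898299), with 22 tags with DHT and 9 with vehicle (2.44, 1.08 to 6.03), and the lowest at an exon, with 61 and 78 tags (0.782, 0.550 to 1.11). In 5 of 31 shared domains (16.1%) DHT was at least 1.5 times higher, where 14.6% of all shared domains of the genome were. In none was it at most 1/1.5, where 6.70% were. A domain of 28 tags with DHT and 17 with vehicle (1.65, 0.871 to 3.21) covered MIR1207, a microRNA gene inside PVT1. The tallest domain found with DHT only had 16 tags and the tallest with vehicle only 9 tags.

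FAM84B encodes a protein of the LRAT domain family. Its promoter lay under a domain of 4.35 kb with 92 tags with DHT and 96 with vehicle (0.958, 0.712 to 1.29). This domain also overlapped the promoter of a far upstream start of PCAT1. The next domains, in PCAT1 introns, had 77 and 94 tags and 32 and 44 tags with DHT and vehicle in that order. The lowest ratio was at an exon of a gene without a symbol (chr8:127338060-127339889), with 23 and 38 tags (0.605, 0.344 to 1.04). Its interval held 1 but lay below the genome's median ratio of 1.07. Only the leftmost domain of the segment had a ratio above 1, at 12 tags with DHT and 11 with vehicle (1.09, 0.441 to 2.73).

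Beyond PVT1, the domains were low, and 6 of 12 were found in both conditions. With DHT only there were 4 (33.3%), where 15.6% of all domains of the genome were, and with vehicle only 2 (16.7%), where 10.2% were. The tallest with DHT was intergenic with 36 tags, against 23 with vehicle (1.57, 0.903 to 2.77). The tallest with vehicle, at a start of the noncoding RNA LINC00824, had 32 tags with DHT and 51 with vehicle (0.627, 0.390 to 0.995). Other intergenic domains had 34 and 43 tags and 17 and 27 tags with DHT and vehicle in that order. In an intron of LINC00824 (chr8:129513000-129514679) the values were 25 tags with DHT and 10 with vehicle (2.50, 1.16 to 5.83). The tallest domain with DHT only had 19 tags, and that with vehicle only had 14 tags, in an intron of CCDC26. From the last LINC00824 domain to that one, 457 kb held no acetylated domain.

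TCF7L2 peaks mostly lay outside acetylated domains. Of the 89 peaks, 27 shared at least 1 bp with a domain of either list (30.3%, 21.8% to 40.5%), where 34.5% of all TCF7L2 peaks did. The share was 6 of 9 in PCAT1, 6 of 29 in POU5F1B, 6 of 12 in MYC and 9 of 20 in PVT1. None of 11 was inside a domain in FAM84B and none of 8 beyond PVT1, which allows shares of up to 25.9% and 32.4% by the Wilson interval. Seen from the domains, 17 of 104 held a TCF7L2 peak (16.3%), where 9.25% of all domains did. TCF7L2 was mapped at another passage and in serum that contained androgens, so serum, passage and true separation of the marks cannot be told apart here.

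Tall TCF7L2 peaks lay both inside and outside acetylation. Of the 19 TCF7L2 peaks of at least 100 tags, 8 lay inside a domain (42.1%, 23.1% to 63.7%) and 11 outside, where 604 of the 2049 such peaks of the genome (29.5%) lay inside. In FAM84B, a peak of 202 tags stood in intergenic DNA 107 kb from the nearest domain, beside a peak of 66 tags, and the second tallest of the segment had 84 tags. Beyond PVT1, a peak of 207 tags in an intron of LINC00824 was 31.1 kb from the nearest domain, and its neighbours had 121 and 119 tags. Over the 62 peaks outside domains the median distance to a domain was 7.53 kb, against 14.2 kb for those of the genome. Within 5 kb lay 25 of the 62, against 3669 of 13732 over the genome. Acetylation was also denser here, with DHT peaks over 9.68% of the window and 4.45% of the genome, which shortens such distances. Closeness beyond this was not tested.

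Many TCF7L2 peaks lay in runs. When peaks no more than 10 kb apart were joined, 9 runs of at least 4 peaks held 49 of the 89 peaks (55.1%). Such runs held 15.5% of all TCF7L2 peaks of the genome. A fixed gap joins more peaks where they are dense, and the window had 29.7 per Mb against 6.77 over the genome. Clustering beyond this density was not tested. The largest run had 10 peaks over 25.4 kb (chr8:128218410-128243849), across the border of PCAT1 and POU5F1B, with 9 of them in exons and introns of CASC19 and the last in a PCAT1 intron only. From left to right these had 50, 20, 46, 212, 202, 57, 221, 18, 131 and 41 tags. The tall ones of 212, 202 and 221 tags ranked 100, 173 (tied) and 44 in the genome. The peak of 212 tags lay inside the domain with 123 tags with DHT and 129 with vehicle, the peak of 202 tags 271 bp outside it, and the peak of 221 tags 4.11 kb from it. Over the genome, 38 runs had 10 or more peaks. The MYC run came next in the window, with 8 peaks over 21.1 kb.

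Further tall TCF7L2 peaks followed to the right of CASC19 within the POU5F1B segment. Peaks of 149 and 188 tags, in PCAT1 introns, were 1.98 and 3.81 kb from the nearest domain. Peaks of 196 and 124 tags in a CASC8 intron lay inside a domain with 92 tags with DHT and 79 with vehicle (1.16, 0.853 to 1.59). Over CCAT2, a noncoding RNA named for colon cancer, a TCF7L2 peak of 101 tags lay inside a domain of 17 tags with DHT and 14 with vehicle. The domain with the largest ratio of the window held only a TCF7L2 peak of 17 tags, the lowest of the 89. In PVT1 the tallest were 170 tags, inside a domain of 12 and 11 tags, 149 tags, 9.33 kb from a domain, and 100 tags, inside a domain of 47 and 49 tags with DHT and vehicle in that order. In the PCAT1 segment, the tallest after that of 212 tags had 135 and 88 tags, both in PCAT1 introns. The first lay inside a domain of 16 tags with DHT and 25 with vehicle, the other inside a domain of 14 tags in both. Tall TCF7L2 peaks thus stood in tall, low and no acetylation alike.

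**Figure D5:**
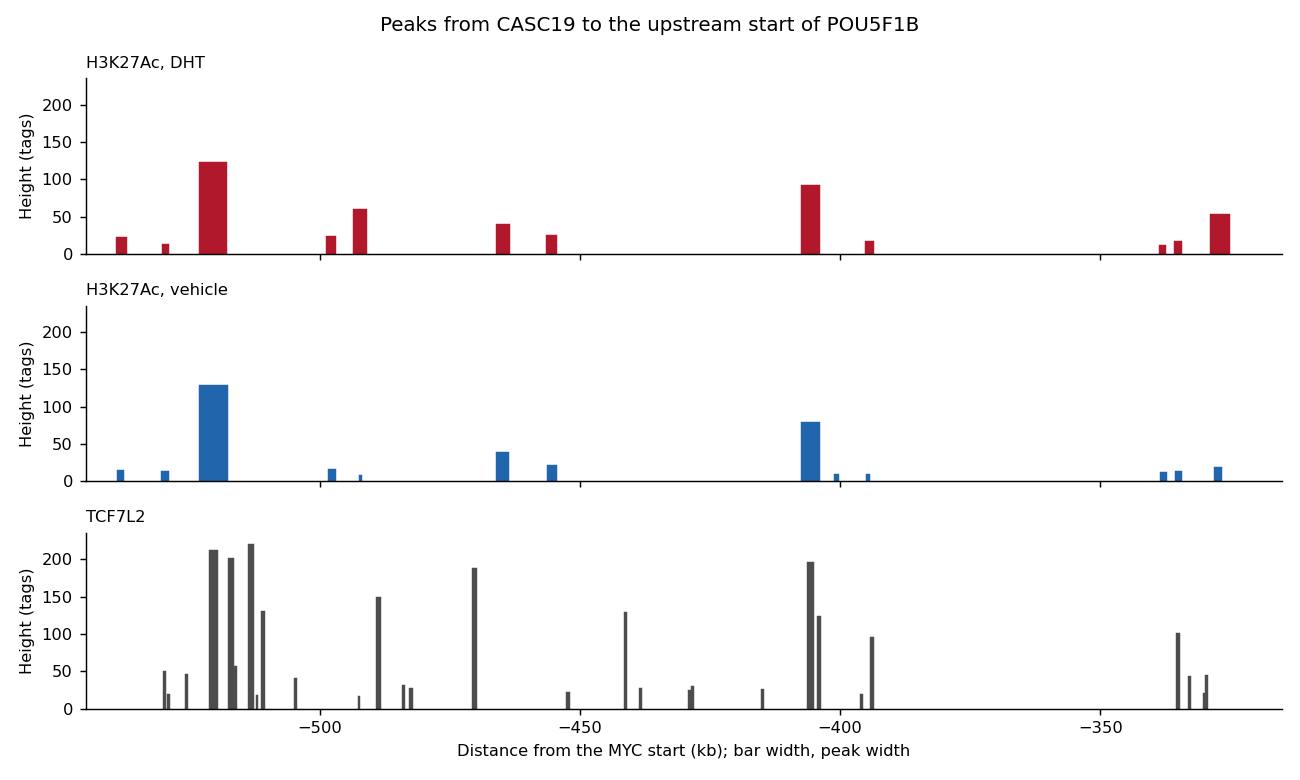
Height in tags (y axis) of peaks from CASC19 to the upstream start of POU5F1B against distance from the MYC start (x axis, kb), drawn as bars as wide as the peak, for H3K27Ac with DHT, H3K27Ac with vehicle and TCF7L2. The TCF7L2 run around -520 kb reaches 221 tags beside a domain of 123 tags with DHT and 129 with vehicle, and the domain near -492 kb is wide with DHT and narrow with vehicle.

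The 17 shared domains of the window with a TCF7L2 peak had a median ratio of 1.09, against 1.0 in the 71 without, and over the genome the medians were 1.10 and 1.07. DHT was higher in 10 of the 17 domains with TCF7L2 (58.8%) and in 35 of the 71 without (49.3%), and over the genome in 68.3% of those with and 55.6% of those without. Both shares of the window were below those of the genome, and the difference was not tested.

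Known factor motifs were counted on both strands in the 300 bp around each TCF7L2 peak centre. The TCF forms CTTTGAT and CTTTGAA, which differ in the last letter only, were present at 17 of 89 peaks (19.1%, 12.3% to 28.5%), where 15.1% of all TCF7L2 peaks had the first, and at 20 of 89 (22.5%, 15.0% to 32.2%), where 16.0% had the second. The forkhead forms TGTTTAC and TGTTTGC were present at 6 (6.74%) and 9 (10.1%), where 5.71% and 5.49% had them. The AP-1 motif TGACTCA was present at 31 (34.8%), where 39.7% had it, and the GATA motif GATAAG at 9 (10.1%), where 10.6% had it. The interval of each of these shares held the genome's value. Among peaks of at least 100 tags, and among peaks inside domains, each interval also held the genome's value for such peaks. Outside domains this failed for CTTTGAA (29.0%, against 18.2%), TGTTTGC (11.3%, against 5.25%) and TGACTCA (32.3%, against 46.7%).

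The 6-letter element AGAACA, which steroid receptors such as the androgen receptor recognise, was at 30 of 89 peaks (33.7%, 24.7% to 44%), where 21.1% of all TCF7L2 peaks had it. It was at 10 of the 19 peaks of at least 100 tags (52.6%, 31.7% to 72.7%), against 25% of such peaks in the genome. Of the 6 tallest peaks, those of 224 tags at MYC and of 221 and 202 tags at CASC19 had it, and those of 212 tags at CASC19, 207 tags beyond PVT1 and 202 tags in FAM84B did not. Inside acetylated domains 7 of 27 peaks had it (25.9%, 13.2% to 44.7%), where 18.4% of such peaks of the genome did. Outside, 23 of 62 had it (37.1%, 26.2% to 49.5%), where 22.5% did. So short a match does not show a bound receptor. Within 200 bp the share in the window was 24.7%, and the genome's share within 200 bp was not counted.

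MYC acts with a network of partners and rivals that bind the same DNA element, so their promoters were read in the same lists. H3K27Ac was present in both conditions at 10 of the 13 genes, where 55.5% of 20149 protein-coding genes had it. MAX, the obligate partner of MYC, had 34 tags with DHT and 29 with vehicle. The MAX-binding repressors MNT (96 and 89 tags), MXI1 (52 and 54), MXD1 (35 and 28), MXD3 (30 and 27) and MXD4 (37 and 31), and MLX (58 and 52) and MLXIP (38 and 33) of the parallel MLX arm, had ratios between 0.963 and 1.25. MGA, another MAX-binding repressor, had 56 tags with DHT and 54 with vehicle, in peaks that did not overlap, so these are different sites. No peak was listed at MYCN or MYCL, the other MYC family genes, nor at MLXIPL. TCF7L2 was at 4 of the 13, where 20.2% of protein-coding genes had it: MYC (91 tags), MNT (50), MXI1 (38) and MLXIP (24).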

How the data were processed

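The 3 peak lists were made by the authors with Sole-search, library by library, on hg19, at a false discovery rate of 0.0001 for H3K27Ac and 0.001 for TCF7L2. The deposited value of a peak is a signal, the height of its tag pileup in whole tags, which no source used here states to be scaled to depth. Read totals are not given in the sources used here. The aligners were Bowtie 2 for H3K27Ac and ELAND for TCF7L2 by the paper, while the submitters' processing notes list CASAVA 1.8.2, BWA and Bowtie2. The serum of the TCF7L2 cells has 2 different concentrations in the labels and the paper. An input library was not analysed here.

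Starts and ends lie on a grid of 30 bp, and widths are ends minus starts. Genes came from GENCODE release 44 mapped to GRCh37. Segment borders used the canonical transcript of each gene and, for PCAT1, the transcript with the length of the RefSeq gene. Promoters ran from 1000 bp upstream to 100 bp downstream of any annotated start. Intervals are conditional exact binomial for ratios and Wilson for shares.

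Named were the 5 segment genes and what lies at their starts and, per segment, the 3 tallest peaks of each list, the widest domain, the highest and lowest ratio, the tallest domain of 1 condition, and the 10 tallest TCF7L2 peaks, with genes they overlap. Other examples and the runs of TCF7L2 peaks were chosen after their values were seen. Members and lists were chosen with earlier results of these data known. The marker PECAM1 was not matched in the annotation. The code was tested on simulated data. Tools were samtools 1.23.1, matplotlib 3.10.9 and scipy 1.17.1 under Python 3.11.15, with pandas 2.3.3, pyfaidx 0.9.0.4 and numpy 2.4.6. No sequence of chromosome 8 is printed.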

Additional observations from a re-analysis of the deposited data

How the results depend on the processing

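No paired analysis was possible because each condition was 1 library. With only the tallest 25000 H3K27Ac peaks of each list, the window held 44 DHT and 46 vehicle peaks, 3 domains with DHT only and 5 with vehicle only, and 12 acetylated domains in PCAT1, 8 in POU5F1B, 17 in PVT1 and 4 beyond PVT1. With at least 20 tags, 1 domain with DHT only and 0 with vehicle only were left, and 3 shared domains were at least 1.5 times higher and 2 at most 1/1.5. The genome's shares were not counted under these settings or after the scaling that follows, so these counts have no background beside them. Divided by the genome's median ratio, 8 were at least 1.5 and the median log2 ratio of the window was -0.03, as it was with at least 20 tags. As percentiles the median difference of DHT minus vehicle was -0.22 points, against -0.19 over the genome. The sign thus depended on the scaling in the window as it did over the genome, and the window was near the genome on both scales. For POU5F1B the median log2 ratio became 0.17 after division by the genome's median. With whole gene extents, an alternative added after the data were seen, acetylated domains numbered 2 in FAM84B, 12 in PCAT1 and 40 in POU5F1B, and PCAT1 had 1 TCF7L2 peak. Within 200 bp, TGTTTGC was at 3.37% of the window's TCF7L2 peaks and AGAACA at 24.7%, with no genome share counted within 200 bp. The share of TCF7L2 peaks inside domains ranged from 29.2% to 34.8% over its alternatives.

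The unknown depth limits every ratio. TCF7L2 heights crowd toward their highest value: 142 peaks of the genome and 4 of the window lie within 10% of the tallest, 229 tags, against 15 DHT peaks and 6 vehicle peaks of the genome within 10% of 213 and 212 tags, and none of the window. What this does to ranks among the tallest TCF7L2 peaks was not tested.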
